A study of Mus musculus with 23 samples.

Results

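The cytosolic ribosome is built from a large (60S-type) and a small (40S-type) subunit, each made of rRNA and many small proteins. The genes described here encode those proteins. They were taken by symbol: names of the form Rpl or Rps with a number and at most a short ending, plus Rplp0, Rplp1, Rplp2, Rpsa and Fau, without names marked as pseudogenes. This rule found 89 of the 53090 genes in the deposited tables, of which 52 belong to the large and 37 to the small subunit. The GENCODE M21 annotation lists 84 of them as protein coding. Rps3a2, Rps3a3, Rps12l1 and Rpl6l are listed there as processed pseudogenes and Rps4l as a transcribed one, so these 5 genes met the rule by symbol only.

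Poly(A) RNA of brain microglia, the resident macrophages of the brain, was sequenced from female C57BL/6 mice in 23 libraries of 4 groups. The labels name the groups only as Y (n = 7), Y-re (n = 3), O (n = 5) and O-re (n = 8); from the series title and the protocols they are read here as young, young repopulated, old and old repopulated. For depletion, mice ate AIN-76A chow with PLX5622, an inhibitor of the CSF1 receptor on which microglia depend for survival, at 1200 ppm; the treatment controls ate the same chow without it. Ages, length of treatment and time of repopulation are not given in the sources used here, and no transgene or gene deletion is named in any group. The protocols describe both CD11b magnetic selection followed by culture and a cell sort, and the text on RNA extraction names sorted cells. Nothing says how many mice gave each library, so a p-value below measures the spread between these libraries.

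Ribosomal protein genes are transcribed at high and matched rates in growing cells, since each ribosome needs 1 copy of nearly every protein. Their mRNAs begin at the cap with a C followed by a run of pyrimidines, the 5′ terminal oligopyrimidine (TOP) tract. Through this tract the kinase mTOR and the RNA-binding protein LARP1 set how much of the mRNA is translated and how long it is kept. Several translation factors carry the same tract.

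The bases around the start site show this tract in some of the members measured here. RefSeq promoters (GRCm38.p6) were at hand for 64 of the 89 members, with 76 start sites. The tract was searched as C followed by at least 4 bases that are each C or T, beginning at the start site. The following windows run from 25 bases before the start to 20 from it, 5′ to 3′ on the strand of the gene, with the run in capitals. They show 6 members that hold the run, chosen over several chromosomes and including Rps27 and Rplp2, whose levels are given below.
Rps27 (chr3:90213629-90213673, minus strand): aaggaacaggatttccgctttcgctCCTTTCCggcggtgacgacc
Rplp2 (chr7:141447626-141447670, plus strand): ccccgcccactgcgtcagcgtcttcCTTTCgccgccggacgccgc
Rps6 (chr4:86857348-86857392, minus strand): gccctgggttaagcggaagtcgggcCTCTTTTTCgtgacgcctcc
Rpl28 (chr7:4792940-4792984, plus strand): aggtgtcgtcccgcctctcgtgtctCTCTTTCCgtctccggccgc
Rps18 (chr17:33955646-33955690, minus strand): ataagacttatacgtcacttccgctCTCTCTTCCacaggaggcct
Fau (chr19:6057922-6057966, plus strand): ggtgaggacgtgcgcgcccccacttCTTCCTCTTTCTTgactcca
A further 4 windows belong to members whose levels changed and have no such run at the annotated start, so they are printed wholly in lower case.
Rps16 (chr7:28350664-28350708, plus strand): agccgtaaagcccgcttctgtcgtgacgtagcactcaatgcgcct
Rps25 (chr9:44407689-44407733, plus strand): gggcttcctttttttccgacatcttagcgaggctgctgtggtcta
Rpl4 (chr9:64173362-64173406, plus strand): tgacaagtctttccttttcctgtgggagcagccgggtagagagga
Rps4x (chrX:102189372-102189416, minus strand): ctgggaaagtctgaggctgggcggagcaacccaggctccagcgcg

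The run began exactly at the start in 14 of the 76 member promoters, or 18.4%. Over all 32851 promoters it did so in 823, or 2.51%. On the other strand the shares were 2.63% of member promoters and 3.38% of all promoters. With the run allowed to begin up to 5 bases either side of the start, 32 member promoters (42.1%) and 18.3% of all promoters held it, against 13.2% and 21.4% on the other strand. None of the 75 promoters of mitochondrial ribosomal proteins and none of the 31 of ribosome assembly factors held it exactly at the start. Among the listed translation factors 2 of 14 promoters did, as did 2 of 14 on the other strand. A match describes letters in these windows, and an annotated start may lie some bases from the one used in these cells.

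Total expected counts, the authors' estimates of reads per gene, summed to between 43657297 and 58189402 per library, and 16399 to 22208 genes had a count. The library numbers in the titles fall into 2 runs, 1 to 11 and 12 to 24; the labels do not say what the numbers stand for. A nuclear rRNA gene (CT010467.1) took 1.46% of counts on average in numbers 1 to 11 and 0.399% in 12 to 24. All Y-re libraries lie in 12 to 24, while Y has 3 libraries in 1 to 11, O has 2 and O-re has 5. For the ribosomal protein genes, O-re replicate 2 and Y replicates 1 and 3 stood apart with high levels, and results that rest on them are given with and without them. Microglial markers (9 genes) were present in every library, with summed levels of 23751–29079 CPM (counts scaled to a common library total) in Y, 21361–24728 in Y-re, 9691–24055 in O and 8945–27350 in O-re. The median sum of 5 monocyte markers was 22.1 CPM in Y, 173 in Y-re, 771 in O and 461 in O-re. The 6 border macrophage markers had median sums of 107, 251, 266 and 502 CPM in the same order, and the 6 neutrophil markers 26.0, 57.1, 138 and 77.6. Lymphocyte and neuron markers were near 0, with summed levels of at most 1.37 and 4.9 CPM in any library. In bulk RNA, fewer cells of a type and less RNA per cell cannot be told apart, and the part of these other cells in the results was not tested.

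Most ribosomal protein mRNAs were abundant in these microglia. Compared per length, in TPM (the deposited level scaled for gene length and library size), 39 of the 89 members had a mean level over all libraries of at least 1000, and 10 lay under 100. Rplp1, a protein of the stalk that recruits elongation factors, had the highest mean level at 2633 TPM. Also among the highest were Rps14 of the small subunit at 2247, Rpl13a of the large subunit at 2176 and Rps27 at 1996. The lowest were copies known from few tissues or listed as pseudogenes. Rpl10l was listed at 0 in mean TPM, Rpl3l had 0.104, Rps3a3 1.52, Rpl39l 3.21 and Rpl6l 15.1. Rpl10l and Rpl3l, best known from testis and muscle, were too low to test, which leaves 87 tested members among 18720 tested genes. Rps12 had only 76.4 TPM while Rps12l1, an intronless copy by the annotation, had 1335; the assignment of reads between such copies is described further on.

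Summed over all members, ribosomal protein genes took a larger share of the library in both repopulated groups. The 3 Y-re libraries had 2.93%, 3.35% and 3.15% of their expected counts in these genes. In the 7 Y libraries the share had a minimum of 2.26%, a median of 2.46% and a maximum of 3.00%. Y-re was thus high in 2 of its 3 libraries, and its lowest library lay below Y replicates 1 and 3, which both had 3.00%. The ratio of mean shares, 3.14% ± 0.208 (SD, n = 3) over 2.55% ± 0.316 (SD, n = 7), was 1.23, and 1.32 without Y replicates 1 and 3.

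In the old groups the 5 O libraries had 2.44%, 2.71%, 2.29%, 2.57% and 2.47%. The 8 O-re libraries had a minimum of 2.69%, a median of 2.89% and a maximum of 3.91%. Only the lowest O-re library and the highest O library overlapped, and the highest value belonged to O-re replicate 2. The ratio of mean shares was 1.22, and 1.17 without O-re replicate 2. Within numbers 12 to 24 the O-re libraries (2.69–2.88%) lay above the O libraries (2.29–2.57%), and within 1 to 11 the O-re libraries (2.87–3.91%) lay above the O libraries (2.44–2.71%). O over Y gave a ratio of 0.978, with values of O inside the range of Y. The ratios from TPM were 1.22 for Y-re over Y (1.28 without Y replicates 1 and 3), 1.17 for O-re over O (1.14 without O-re replicate 2) and 0.989 for O over Y. These sums are descriptions without a test.

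**Figure D1:**
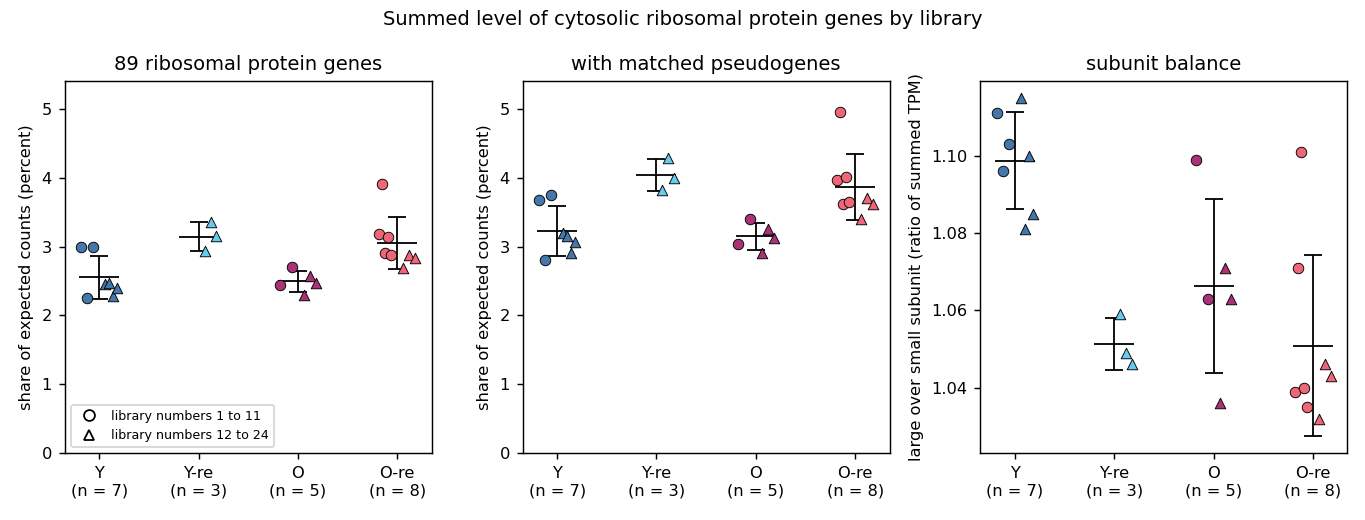
Each point is a library, by group and marked by its run of library numbers: share of expected counts (percent) in the 89 cytosolic ribosomal protein genes (left), the same with matched pseudogenes added (middle), and ratio of large-subunit to small-subunit TPM (right), with the mean ± SD of each group as bars. The Y-re libraries (2.93–3.35%) and O-re libraries (2.69–3.91%) sit above most Y and O libraries, with O-re replicate 2 highest.

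Both subunits were higher after repopulation: the median log2 fold change was 0.31 for the large and 0.30 for the small subunit in young mice, and 0.32 for both in old mice. The ratio of large-subunit to small-subunit TPM had a mean of 1.099 in Y (1.081–1.115), 1.051 in Y-re (1.046–1.059), 1.066 in O (1.036–1.099) and 1.051 in O-re (1.032–1.101). Every Y-re library lay below every Y library in this ratio, while O and O-re overlapped. From expected counts the ratios of Y (1.199–1.27) and Y-re (1.195–1.221) overlapped too, as they did with matched pseudogenes added (1.318–1.381 and 1.323–1.35). Within library numbers 12 to 24, which hold all Y-re libraries, the ratios of Y and Y-re did not overlap. The 4 Y libraries there had 1.238–1.27 from counts and 1.367–1.381 with matched pseudogenes.

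Repopulation in young mice: of the 87 tested members 76 had a fitted Y-re level above that of Y, against 46.2% of all tested genes. Their median log2 fold change was 0.30, a 1.23-fold difference, where the median of all tested genes was -0.04. Here and below a gene is called when its Benjamini-Hochberg adjusted p, over all tested genes, is under 0.05 in edgeR's quasi-likelihood test. In this comparison 9 members were called higher in Y-re and none lower; over all genes 0.828% were called higher. At an unadjusted p under 0.05, 43 members were higher in Y-re, against 6.96% of all genes. In the large subunit 43 of 50 tested members were above 0, with Rpl4, Rpl21 and Rplp2 called. In the small subunit 33 of 37 were above 0, and the called ones included Rps3a1, Rps4x, Rps19, Rps25 and Rps27.

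Rps27, a small-subunit protein with a zinc finger (chromosome 3, 90212522–90213651, minus strand, GRCm38), had the largest called change. Its 3 Y-re libraries had 478, 503 and 501 CPM, and its 7 Y libraries had a minimum of 242, a median of 291 and a maximum of 369. No Y library reached the Y-re range. The fitted log2 fold change was 0.72 ± 0.14 (SE), a 1.64-fold difference, with an adjusted p of 0.0112 by edgeR. In the old groups Rps27 had 270, 324, 322, 330 and 337 CPM in O, and a minimum of 300, a median of 362 and a maximum of 488 in O-re. These ranges overlapped, and the difference was not called (log2 fold change 0.30, adjusted p 0.333 by edgeR).

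Rps4x, the X-linked form of a small-subunit protein (chromosome X, 102184941–102189394, minus strand), was the next. It had 1158, 1276 and 1253 CPM in Y-re, against a minimum of 727, a median of 764 and a maximum of 983 in Y. All 3 Y-re libraries were above all Y libraries. The log2 fold change was 0.61 ± 0.12 (SE; adjusted p 0.0152 by edgeR). In the old groups it had 769, 852, 736, 825 and 792 CPM in O and 895 to 1345, with a median of 960, in O-re. Every O-re library lay above every O library, although this difference (log2 fold change 0.39, adjusted p 0.107 by edgeR) was not called.

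Among the other called members Rps19, a small-subunit protein known from Diamond-Blackfan anaemia, had a log2 fold change of 0.39 (adjusted p 0.0465 by edgeR). Rps25, which viral and some cellular internal ribosome entry sites need, changed by 0.44 (adjusted p 0.029), and Rps3a1 of the small subunit by 0.46 (adjusted p 0.0366). In the large subunit Rpl4, which lines the exit tunnel, changed by 0.46 (adjusted p 0.0381), Rpl21 by 0.48 (adjusted p 0.0454) and Rplp2 of the stalk by 0.47 (adjusted p 0.0379). Rplp2 had 410, 461 and 381 CPM in Y-re and 248–384 in Y, so its groups overlapped by 1 library of each. For 22 members every Y-re library was above every Y library, against 5.97% of all genes.

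The 11 members whose fitted level was not above that of Y were Rpl5, Rpl7l1, Rpl10, Rpl10a, Rpl13a, Rpl27, Rpl41, Rps3a2, Rps4l, Rps12 and Rps13. None of them was called. Rpl13a, a large-subunit protein that can leave the ribosome to block translation after interferon-gamma, had 691, 729 and 812 CPM in Y-re and 629–913 in Y, a log2 fold change of -0.09. Rpl41, the shortest ribosomal protein, had 304, 310 and 301 CPM in Y-re and a median of 338 in Y. Rps3a2, a copy of Rps3a1, ranged from 4.47 to 184 CPM in Y alone.

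**Figure D2:**
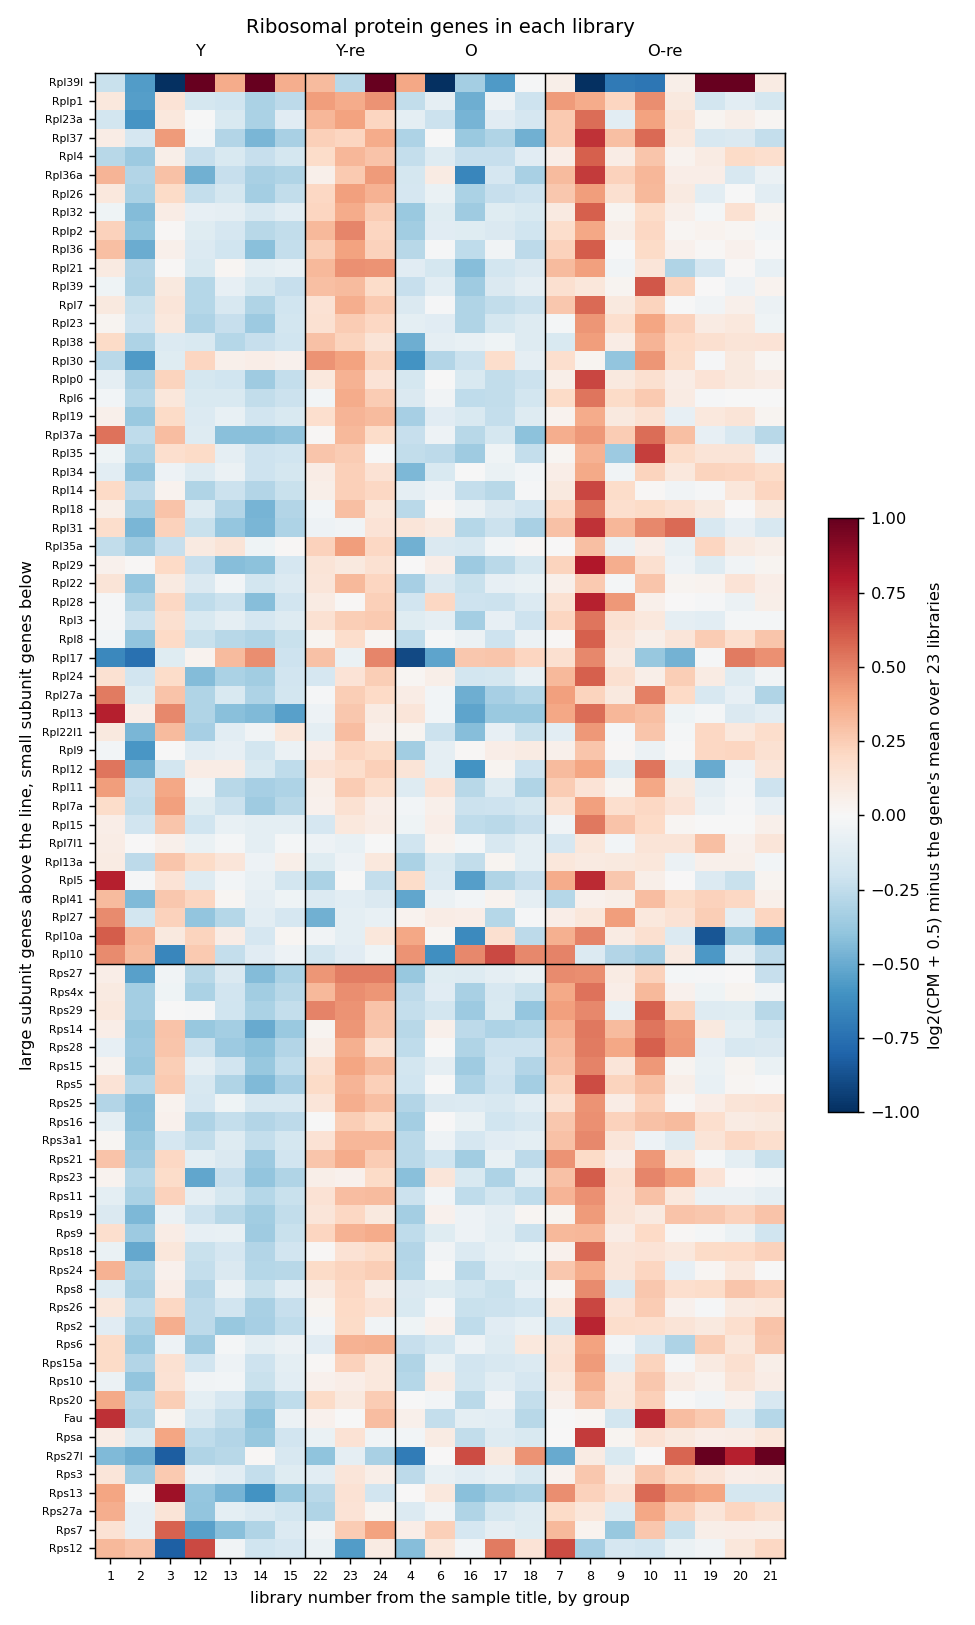
Colour gives the log2(CPM + 0.5) of 80 of the 82 tested protein-coding members (vertical, large subunit above the line) in each of the 23 libraries (horizontal, by group and library number), minus that gene's mean over the libraries, with colours at their limit beyond ± 1. Most members share the high columns of Y-re and of O-re replicate 2 (library number 8), while Rpl10, Rps12, Rpl39l and Rps27l do not follow the rest.

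These calls depended on the tool and the libraries. DESeq2 called 19 members higher (1.81% of all genes), and limma voom with sample quality weights called 58 higher (6.76% of all genes) and Rps4l lower. Within library numbers 12 to 24, where 4 Y and 3 Y-re libraries remain, 59 members were called higher against 5.41% of all genes, with a median of 0.43. In the other direction, leaving out any 1 of the 3 Y-re libraries gave 0 calls by edgeR, with 0.116% to 0.291% of all genes called higher. Leaving out Y replicates 2, 4, 6 and 7 in turn gave 4, 3, 2 and 2, with 0.401% to 0.562% of all genes. Leaving out Y replicate 1 gave 10 (0.581% of all genes), Y replicate 3 gave 18 (1.2%) and O-re replicate 1 gave 15 (1.33%). The median stayed between 0.28 and 0.35 whichever library was left out.

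Repopulation in old mice: 84 of 87 members had a fitted O-re level above that of O, against 50.6% of all genes, with a median log2 fold change of 0.32 (1.25-fold) where that of all genes was 0.00. A single member, Rps16, was called higher by edgeR, as were 0.0641% of all genes. At an unadjusted p under 0.05, 64 members were higher in O-re, against 4.84% of all genes. DESeq2 called 12 members higher (0.502% of all genes), as did voom (0.63%). Within numbers 12 to 24, 19 members were called higher, against 5.66% of all genes, and Rpl10 lower. Within numbers 1 to 11, with 2 O and 5 O-re libraries, none was called, as over all genes (0%). There 82 members were above 0, with a median of 0.35 where that of all genes was 0.02. In either direction 24 members had an unadjusted p under 0.05 by edgeR. The share of all genes at that level was not taken within this run.

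Rps16, a small-subunit protein whose tail reaches the tRNA in the P site (chromosome 7, 28350652–28353155, plus strand), had 251, 319, 304, 277 and 284 CPM in O. Its 8 O-re libraries had a minimum of 337, a median of 379 and a maximum of 437. No O library reached the O-re range. The log2 fold change was 0.39 ± 0.09 (SE), a 1.31-fold difference, with an adjusted p of 0.0492 by edgeR. This call was near the threshold. Leaving out each of the 23 libraries in turn gave 0 to 5 calls, most often 0; without O-re replicate 2 it was 0, with a median of 0.27 and 85 members above 0, and without O-re replicate 1 it was 5, against 0.285% of all genes. In Y-re Rps16 had 317, 378 and 364 CPM against a median of 265 in Y, a 1.29-fold difference that was not called.

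For 19 members every O-re library was above every O library, against 0.304% of all genes. They included Rps3, Rps4x, Rps15, Rps16, Rps18, Rps25 and Rps26 of the small subunit, and Rpl4, Rpl6, Rpl8, Rpl19, Rpl22, Rpl23, Rpl32, Rpl36, Rpl39, Rplp0 and Rplp2 of the large. Rplp0, the base of the stalk, had 875, 985, 887, 833 and 852 CPM in O and 1029 to 1567 in O-re, with the maximum again in replicate 2. The fold for Rplp0 (log2 0.34, adjusted p 0.197 by edgeR) did not pass the test. Rplp1 overlapped between the old groups, with 500–678 CPM in O and 619–967 in O-re.

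The members below 0 in old mice were Rpl10, Rps12 and Rpl10a. Rpl10, a late-joining protein that makes the large subunit fit to join the small one, had a log2 fold change of -0.46 ± 0.20 (SE; adjusted p 0.374 by edgeR), and the other two lay at -0.04 and -0.02. The highest, Rps3a2 (1.38), Rpl39l (0.76) and Rpl6l (0.72), were low and scattered copies and none was called.

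Members chosen for roles in signalling or outside the ribosome were not called in either comparison. Rps6, the substrate of S6 kinase, had log2 fold changes of 0.31 in young (adjusted p 0.299 by edgeR) and 0.19 in old mice (adjusted p 0.641). Rpsa, also known as a laminin receptor, had 0.11 and 0.26. Fau, which encodes a ubiquitin-like protein fused to a small-subunit protein, had 0.13 and 0.26. Most counts of Fau and its copies lie in matched pseudogenes. With these added, Fau had means of 461 CPM in Y, 593 in Y-re, 432 in O and 504 in O-re. Rpl3, near the peptidyl transferase centre, had 0.30 and 0.28.

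Age alone: without repopulation no member passed the test. In O against Y 28 of 87 members were above 0, with a median of -0.04. None was called by edgeR (2.83% of all genes were called in either direction), and 3 had an unadjusted p under 0.05 where 15.3% of all genes did. DESeq2 called none (5.19% of all genes), and voom called Rps19 higher and Rps4l lower (12.6% of all genes). Within numbers 12 to 24, Rpl10, Rps19 and Rps27l were called higher and Rps4l lower, 4 of 87 members against 15.7% of all genes in either direction.

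Old repopulated against young: O-re against Y gave more calls than either comparison within an age. Here 34 members were called higher by edgeR and none lower, against 9.29% of all genes called higher, and 80 of 87 were above 0 with a median of 0.26. Rps19 had 214–281 CPM in Y, with a median of 247, and 298–394 in O-re, with a median of 348. Together with Rps16 and Rpl34 it was 1 of 3 members for which every O-re library was above every Y library, against 0.983% of all genes. Its log2 fold change was 0.46 ± 0.07 (SE; adjusted p 0.000601 by edgeR), and that of Rps16 was 0.46 ± 0.08 (adjusted p 0.000833).

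Other called members were the following. Rps23, at the decoding centre, changed by 0.47 on the log2 scale (adjusted p 0.00782 by edgeR), Rps14 by 0.47 (adjusted p 0.0169) and Rps2, at the mRNA entry, by 0.39 (adjusted p 0.0306). Rps18 and Rps28 of the small subunit changed by 0.39 and 0.45. Rpl8, near the peptidyl transferase centre, changed by 0.38 (adjusted p 0.00859), Rpl31, at the tunnel exit, by 0.46 (adjusted p 0.0304) and Rpl4 by 0.39 (adjusted p 0.00439). Without O-re replicate 2 the count of members called higher was 20, against 8.65% of all genes. Without Y replicate 6 it was 19 (7.61% of all genes) and without Y replicate 7 it was 20 (7.64%). Without Y replicate 1 it was 39 (7.6%) and without Y replicate 3 it was 47 (9.8%). No member was called within numbers 1 to 11, with 3 Y and 5 O-re libraries, against 0.0107% of all genes in either direction. This comparison shares the O-re libraries with the old comparison and the Y libraries with the young one.

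Rps27l, a relative of Rps27 known as a p53 target, had the largest called change of O-re against Y, at 0.79 ± 0.22 (SE; adjusted p 0.0177 by edgeR). It had a minimum of 23.9, a median of 34.6 and a maximum of 43.2 CPM in Y and 32.2, 40.1 and 34.1 in Y-re. In O it had 26.2, 42.8, 67.6, 45.7 and 58.5 CPM, and in O-re a minimum of 30.0, a median of 54.9 and a maximum of 86.5. These ranges overlapped, and the level differed by run of library numbers. Within 12 to 24 it had 34.6–43.2 CPM in Y, 32.2–40.1 in Y-re, 45.7–67.6 in O and 73.8–86.5 in O-re, which gave 3 groups apart: Y with Y-re, then O, then O-re. There O against Y had a log2 fold change of 0.61 (adjusted p 0.00725 by edgeR) and O-re against O one of 0.52 (adjusted p 0.0291). Within 1 to 11 the levels were 23.9–31.3 in Y, 26.2–42.8 in O and 30.0–64.4 in O-re, and O-re against Y was not called (0.64, adjusted p 0.407). By group, Rps27 was highest in Y-re and its relative Rps27l in O-re.

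Old against young repopulated microglia, and the test of whether the repopulation difference itself depended on age, gave no call. In O-re against Y-re 40 of 87 members were above 0 with a median of -0.03. None was called by edgeR, as over all genes (0%), and 5 had an unadjusted p under 0.05, against 11.7% of all genes. DESeq2 called none of them (0.433% of all genes). Voom called Rps27l higher and Rpl21, Rplp1, Rps4x, Rps9, Rps27 and Rps29 lower (17% of all genes in either direction).

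The interaction, the old minus the young difference, had 46 members above 0 with a median of 0.02. None was called by edgeR, as over all genes (0%), and 4 had an unadjusted p under 0.05, against 8.24% of all genes. DESeq2 called none (0.235% of all genes), and voom called Rps27 lower (0.807% of all genes).

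Within numbers 12 to 24 more members were called. There 28 members were called lower in O-re than in Y-re, against 17.8% of all genes, and Rpl41 and Rps27l higher. The interaction was called negative for 10 members, against 4.75% of all genes, among them Rpl10, Rpl26, Rplp1, Rplp2, Rps4x, Rps9, Rps27, Rps28 and Rps29. For Rps27 the young difference was 0.81 (adjusted p 0.000394 by edgeR) and the old one 0.02 (adjusted p 0.919), with an interaction of -0.79 (adjusted p 0.00941). In numbers 1 to 11 the old difference of Rps27 was 0.51, which was not called, so it differed in size between the runs. For Rplp1 the young difference was 0.68 (adjusted p 0.00186) and the old one 0.08 (adjusted p 0.662), with an interaction of -0.60 (adjusted p 0.0256). Rps4x had 0.72 and 0.22, with an interaction of -0.51 (adjusted p 0.0205). In numbers 1 to 11, which hold no Y-re library, the test could not be made, so these interactions rest on 3 libraries each of Y-re, O and O-re and 4 of Y.

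The young and the old repopulation differences have no library in common. Across the 82 tested members that are protein coding, the 2 log2 fold changes had a Pearson correlation of 0.48 and a Spearman correlation of 0.42, a description across genes that are not independent. Over all 87 tested members, which adds the 5 copies listed as pseudogenes, they were -0.08 and 0.39. Both changes were above 0 in 73 of the 82. Of all 87, 8 members were above 0 in old mice only, none in young mice only, and 3 in neither. In young mice the change was larger in members of higher level, with a Spearman correlation of 0.55 with mean TPM across the 82; in old mice it was 0.21. The young change also had a correlation of -0.40 with the percent of counts in matched pseudogenes; in old mice it was -0.16.

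**Figure D3:**
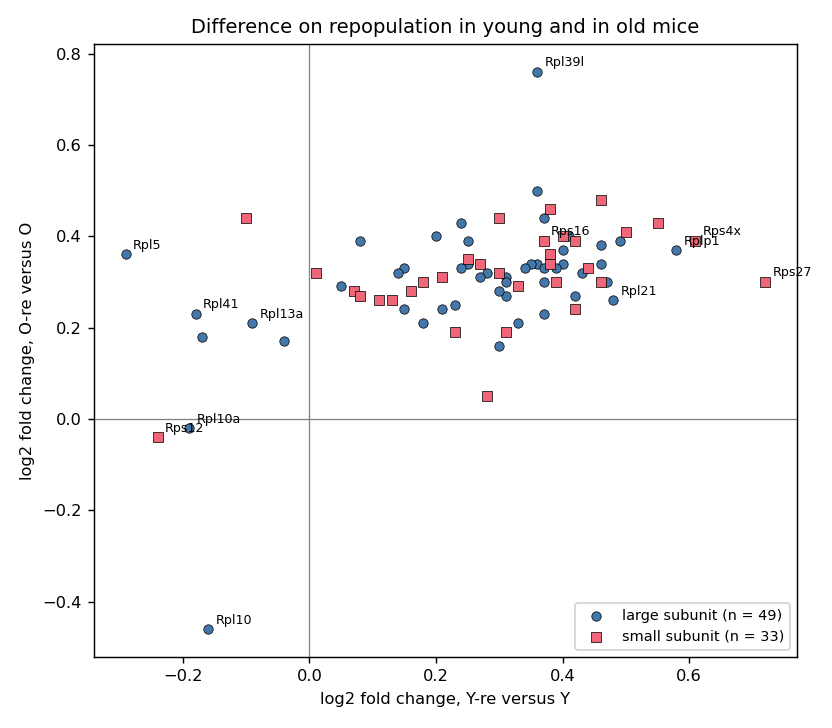
Log2 fold change of each tested member in young (Y-re against Y, horizontal) and old mice (O-re against O, vertical), with lines at 0; each point is 1 of the 82 tested protein-coding members, with round markers for the large and square markers for the small subunit. In 73 of the 82 both values are above 0, and Rps27 (0.72) and Rps4x (0.61) lie farthest to the right.

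Most members varied together from library to library. Across the 23 libraries, pooled over groups, the log2 CPM of a protein-coding member had a median Spearman correlation of 0.81 with the mean of the others; 42 of the 82 reached 0.8, and 14 lay under 0.5. Over 9882 other genes the median correlation with the members' mean was 0.02, and 0.121% reached 0.8. Rps15, Rpl36 and Rps4x were the closest at 0.96. The 4 with a correlation below 0 were Rpl39l (-0.31), Rpl10 (-0.27), Rps12 (-0.18) and Rps27l (-0.09). Rpl39l had at most 3.0 CPM in any library. The division of reads between Rpl10 or Rps12 and their copies is described below. The pooled libraries include the group differences given above, and all members of a library share its depth and scaling.

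Of 9882 genes outside the family the closest was Eef1a1, the elongation factor that brings tRNA to the ribosome, with a Spearman correlation of 0.91 with the members' mean over 23 libraries. It had 6653 ± 525 CPM in Y, 9272 ± 347 in Y-re, 6626 ± 434 in O and 8291 ± 1205 in O-re (SD). Eef1b2, the exchange factor for Eef1a1, followed at 0.90, then the initiation factor subunit Eif3f at 0.86, and Klhl21 and Nsa2, a factor of large-subunit assembly, at 0.85. The Eef1a1 promoter (chr9:78481705-78481749, minus strand) and that of Rack1, a protein of the small subunit outside the symbol rule (chr11:48800335-48800379, plus strand), hold the same kind of pyrimidine run as the members above, in capitals; in Eef1a1 it begins 1 base before the annotated start. Of the other genes just named Eif3f also holds such a run, and the windows of Eef1b2, Klhl21 and Nsa2 hold none within 5 bases of the start.
Eef1a1: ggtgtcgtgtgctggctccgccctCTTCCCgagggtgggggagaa
Rack1: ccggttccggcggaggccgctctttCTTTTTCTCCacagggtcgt

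The other genes of translation and ribosome production were taken from fixed lists. Of 18 translation factors with TOP mRNAs, all 18 were above 0 in old mice (median 0.26) and 17 in young (median 0.28). In old mice none was called by edgeR, where 0.0641% of all genes were called higher. There 14 had an unadjusted p under 0.05, against 4.84% of all genes higher at that level. In young mice Eif3h was called higher (0.45, adjusted p 0.0391 by edgeR), as were 0.828% of all genes. O-re against Y called 9 of the 18 higher, against 9.29% of all genes. Among the 9 were Eef1a1, Eef1g, Btf3 and Tpt1, the last with 0.53. Rack1 and Rpl36al, near members outside the symbol rule, had changes of 0.37 and 0.41 in old and of 0.33 and 0.25 in young mice. Rack1 and Rpl36al were called higher in O-re against Y, as were 9.29% of all genes.

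Ribosome assembly factors, which build and export the subunits, were above 0 in 32 of 33 cases in old mice (median 0.19) and in 15 of 33 in young (median -0.00). In O-re against Y 9 of the 33 were called higher by edgeR, against 9.29% of all genes. RNA polymerase I and its factors (11 genes), which transcribe rRNA, had medians of 0.12 and -0.00. The genes that control ribosomal protein translation and synthesis (16 tested) had medians of -0.00 and -0.02: Mtor had 0.01 in old and 0.29 in young mice, Larp1 -0.01 and -0.11, and Myc -0.66 and -0.62. In O-re against Y 2 of the 16, the cap-binding protein Eif4e and its inhibitor Eif4ebp1 (0.78), were called higher, a share near the 9.29% of all genes.

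Mitochondrial ribosomal proteins, the 79 genes of the separate ribosome inside mitochondria, were above 0 in 73 cases in old mice (median 0.17) and in 33 in young (median -0.03). As a measure of what short and abundant mRNAs do in these libraries, 210 genes that lie within the members' range of level and length had medians of 0.13 in old (179 above 0) and -0.03 in young mice (95 above 0). In old mice, then, several other groups of genes also lay above 0 at smaller medians than the members' 0.32. In young mice the members and the TOP translation factors lay near 0.3, and assembly factors, mitochondrial ribosomal proteins and short genes lay near 0. Whether these medians differ was not tested. Cycling-cell markers had summed medians of 379 CPM in Y, 224 in Y-re, 297 in O and 281 in O-re; with a dissociation-response list at 4152, 5804, 4155 and 3563 CPM, their part in the results was not tested.

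**Figure D4:**
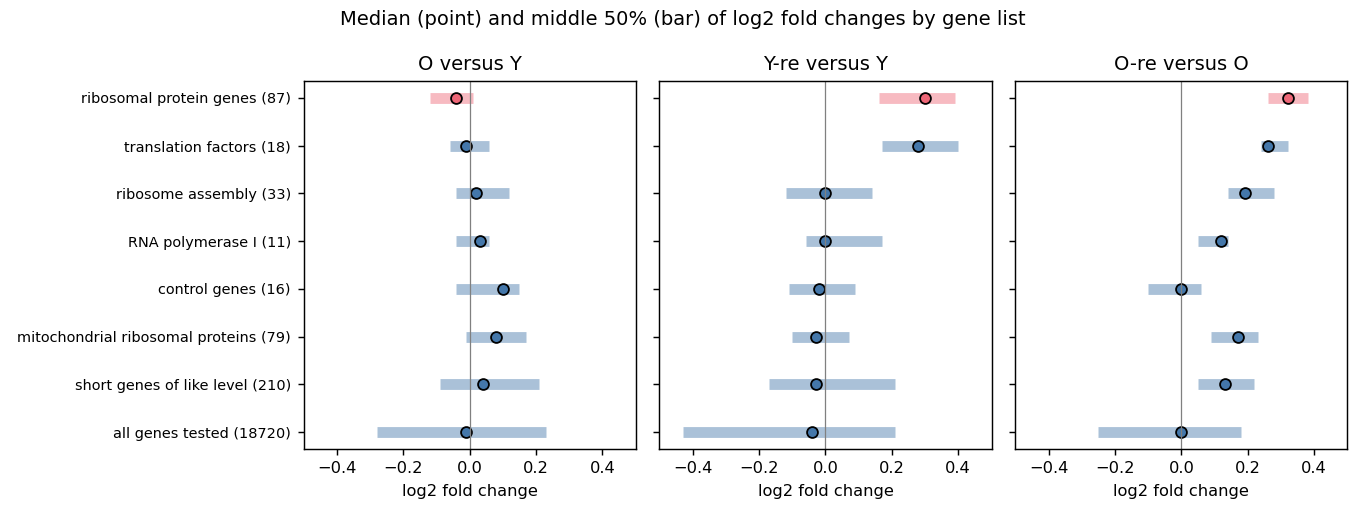
Median (point) and middle 50% (bar) of the log2 fold changes (horizontal axis) of the ribosomal protein genes, the fixed gene lists, the short genes and all tested genes, with the number of genes in parentheses, in O against Y, Y-re against Y and O-re against O. The ribosomal protein genes (0.30 and 0.32) and TOP translation factors (0.28 and 0.26) are above 0 in both repopulation comparisons, while mitochondrial ribosomal proteins are at -0.03 and 0.17.

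Ribosomal protein genes have many processed pseudogenes, intronless copies of their mRNAs, and with single reads of 50 bases the reads of gene and copy are often the same. Only 8.74% of the members' expected counts were whole numbers, within 1e-06, against 87.26% over all genes, as happens when reads are divided among copies. Copies were therefore matched to the members by sequence (at least 80% identity over at least 100 bases), which gave 1588 pseudogenes for 82 members. Their counts came to 22.7–30.3% of the members' own counts in a library. For 15 members the copies held more than 50% of the counts of gene and copies together, led by Rpl5 (94.7%), Rpl12 (91.9%), Rpl27 (83.0%) and Rpl10 (81.7%). A low value of such a gene, and its difference between groups, is therefore uncertain.

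The comparisons were repeated with these matched copies added to their gene. The 5 members listed as pseudogenes were kept as members and were not added to any gene. Rps12 thus stayed at means of 28.5 CPM in Y and 24.5 in Y-re, apart from Rps12l1 at 269 and 329. In Y-re against Y 82 members were above 0, with a median of 0.38 and 21 called higher, against 0.956% of all genes. In O-re against O 86 were above 0, with a median of 0.33, and Rpl12 was called in place of Rps16, against 0.0437% of all genes. O-re against Y called 56 members higher, against 11.1% of all genes. Of the 11 members that were not above 0 in young mice, 5 had most of their counts in copies, and 6 were above 0 once the copies were added: Rpl10 (0.83), Rps13 (0.34), Rpl5 (0.24), Rpl27 (0.22), Rpl10a (0.12) and Rpl7l1 (0.10). Rpl5, which with Rpl11 and 5S rRNA holds back the p53 inhibitor Mdm2, then had 791 ± 88.7 CPM in Y, 934 ± 69.3 in Y-re, 730 ± 62.2 in O and 921 ± 88.5 in O-re (SD). The summed share with copies was 3.22% in Y, 4.04% in Y-re, 3.14% in O and 3.86% in O-re, ratios of 1.25 in young mice (1.33 without Y replicates 1 and 3) and 1.23 in old (1.18 without O-re replicate 2).

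**Figure D5:**
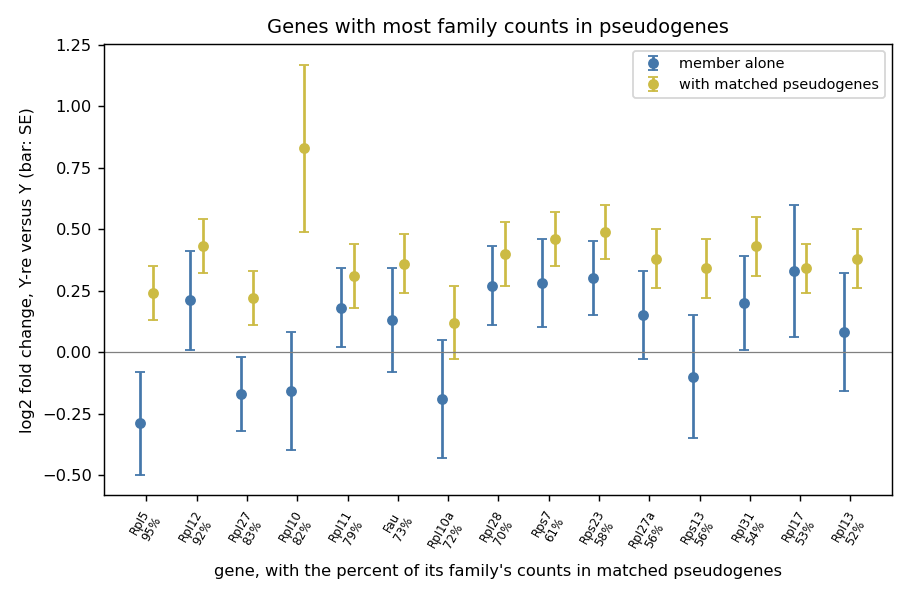
Log2 fold change of Y-re against Y (points, with SE bars) for the 15 members with more than 50% of the counts of gene and copies in matched pseudogenes, alone and with those copies added; the percent stands under each name. All 15 lie above 0 with the copies added, with Rpl10 moving farthest, to 0.83.

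The listed paralogues within the family range from copies near 0 to the abundant Rps4x. Rpl22l1, Rpl39l, Rpl7l1 and Rps4l were tested besides Rps27l and Rps4x, and none of these 4 was called in young or in old mice. Rpl22l1, the relative of Rpl22, had log2 fold changes of 0.14 in young and 0.32 in old mice. Rpl7l1 had -0.04 and 0.17, and the smallest spread within groups of any member (SD of log2 CPM 0.10). Rps4l had -0.69 in young mice (adjusted p 0.267 by edgeR) and 0.05 in old. Spread was largest for Rpl6l (2.24), Rps3a2 (1.95), Rpl39l (1.86) and Rps3a3 (1.09), all at the low end of the levels or listed as pseudogenes. Rpl13a, Rpl22, Rpl34 and Rps10 were the next most even, at 0.13.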

How the data were processed

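Per the submitters' processing notes, reads were checked with FastQC 0.11.5, and STAR, RSEM, limma and the genome build GRCm38 were used. Other versions, the annotation release and the strand setting are not given in the sources used here. As the protocols in the labels state, libraries were stranded, poly(A)-selected, made from 2.4 to 147 ng of RNA and read as single 50-base reads. Per the file headers, the deposited tables hold 1 library each with expected counts (estimated reads per gene), TPM (levels scaled for length and library size) and effective length per gene. Total expected counts were 43657297 to 58189402 per library; the effect of depth on precision was not tested.

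Expected counts were rounded and tested with edgeR 4.0.16 in R 4.3.3: genes kept by filterByExpr, TMM scaling, 1 quasi-likelihood fit over all 23 libraries without covariates, 6 contrasts, p-values adjusted over 18720 genes. The test was also checked on simulated counts. CPM are expected counts scaled to a common library total. Alternatives were DESeq2 1.42.0, limma 3.58.1 (voom), other scalings and filters, the 2 runs of library numbers, effective lengths as an offset, named pseudogenes added to their gene, and each library left out. Pseudogenes matched by sequence with BLAST 2.17.0 against GENCODE M21 transcripts were added after seeing the data. Promoters are RefSeq's; protein sequences were not used here.

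The members and lists were chosen with earlier results of these data known. Members were named by a rule: in each contrast up to 12 called per direction, or else the 3 with the largest change; Rplp0, Rplp1, Rplp2, Rpsa, Fau, Rps6, Rpl3 and the paralogues; the 5 of highest and lowest TPM and of largest and smallest spread; and the 5 other genes closest to the members' mean. Other members are named where a count lists them, and some genes that met the rule are not reported here. Groups were taken from the labels, and replicate numbers, given in accession order, only name libraries. Figures were drawn with matplotlib 3.10.9.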

Additional observations from a re-analysis of the deposited data

Results flagged for a closer look

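Single libraries far from the rest of their group were looked for in 40 named members and 4 sums, in the groups of 4 to 10 libraries. Of 128 such comparisons 20 had a gap between the outermost library and its neighbour above Dixon's 95% critical value. Chance gives about 1 in 20 for independent comparisons. These are not independent, since most members vary together and the sums hold the same members. O-re replicate 2 was the outermost library in 10 of them, each time as the highest. Its summed share was 3.91% (next 3.18%), and 4.95% with matched pseudogenes (next 4.01%). Among single members it had 1567 CPM of Rplp0, 1545 of Rpl4, 1298 of Rpl3, 1090 of Rpsa, 757 of Rpl8, 663 of Rps18, 499 of Rps25 and 171 of Rps2.

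In Y, replicate 3 was highest in Rplp0 (1155 CPM), Rps28 (216) and Rps2 (130), and replicate 1 in Fau (213, next 131) and Rpl5 (73.9, next 47.3). In O, replicate 2 was highest in Rps14 (657 CPM, next 531) and lowest in Rpl10 (26.5, next 55.7), replicate 1 was lowest in Rps27 (270, next 322), and replicate 3 was lowest in Rpl21 (149, next 176). O-re replicate 1 was highest in Rps12 (40.6 CPM, next 29.7). Fau, Rpl5 and Rpl10 are among the members with most of their counts in pseudogenes.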

How the results depend on the processing

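Direction was steady and calls were not. In O-re against O, Y-re against Y and O-re against Y, the members' median log2 fold change was above 0 under each alternative run, at 0.22 to 0.35, 0.28 to 0.43 and 0.20 to 0.33. In Y-re against Y the 9 calls became 3 without a filter, 15 with named pseudogenes, 19 with DESeq2 and 21 with pseudogenes matched by sequence. They became 22 with only the compared groups fitted and 25 with the run of library numbers as a term. Within numbers 12 to 24 the count was 59, and with voom it was 59, of which 58 were higher. Across these settings 0.526% (no filter) to 13.8% (voom) of all genes were called in either direction. Leaving out a library gave 0 to 18, with 0.166% to 2.19% of all genes in either direction. In O-re against O the 1 call became 0 with RLE or upper-quartile scaling, no filter, a minimum mean of 5 CPM or only the compared groups. It was also 0 with effective lengths, with named pseudogenes and within numbers 1 to 11. In these settings 0% to 0.511% of all genes were called in either direction. The count was 12 with DESeq2 (0.502% of all genes called higher) and 12 with voom (0.63%). Within numbers 12 to 24 it was 20 (12.7% of all genes in either direction). Leaving out a library gave 0 to 5, with 0.0268% to 0.995% of all genes in either direction. In O-re against Y the 34 calls stood beside 15.2% of all genes in either direction. They became 16 with upper-quartile scaling (14.4% of all genes) and 22 without a filter (7.13%). The count was 56 with pseudogenes matched by sequence (16.7%), 61 with voom (35.5%) and 0 within numbers 1 to 11 (0.0107%). With a library left out it was 19 to 48. The lowest count, without Y replicate 6, came with 7.61% of all genes called higher. The highest, without Y replicate 3, came with 9.8% called higher. From 0 calls, O against Y went to 2 with voom (12.6% of all genes) and 4 within numbers 12 to 24 (15.7%). O-re against Y-re went to 7 with voom (17%) and 3 with the run as a term (4.52%). Within numbers 12 to 24 it went to 30 (36.3%), with a median of -0.18. Each of these counts for O against Y and O-re against Y-re is out of 87 members. Each lies below the share of all genes when both directions are pooled. By direction, 28 of the 30 members were lower in O-re, against 17.8% of all genes. The other 2 were higher, against 18.5% of all genes. The interaction went to 1 with voom (0.807%) and 10 within numbers 12 to 24 (8.87%), the latter with a median of -0.21. The ratio of summed share without Y replicates 1 and 3 together (1.32 for Y-re over Y) was added after seeing the data. The ratios of summed share moved by less than the spread. Within-run fits have fewer samples; the cause of the other changes was not tested. No paired analysis was possible because replicate numbers were given in accession order and library numbers are unique across groups. What depth limits was not tested; reads that match several copies limit those with most counts in pseudogenes.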
